A study of Mus musculus with 2 samples.

Results

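The 8 genes described here are Calb1, Calb2, Pvalb, Necab1, Necab2, Pcp4, Hpca and Ncald, which were chosen by symbol from the 30431 genes of the matrices, where each has 1 row. They were measured by single-nucleus RNA sequencing of dorsal CA1, the output region of the hippocampus proper, in 1 control library and 1 epilepsy library from male C57BL/6J mice. All animals of both groups carried Calb1::Cre and a Tdtomato reporter, so that Cre was driven by Calb1 in control and epileptic mice alike. Mice of both groups were 6 to 7 weeks old at treatment. In the epilepsy group kainate, an agonist of kainate-type glutamate receptors that induces seizures, was injected at 5 mg/kg, repeatedly, until status epilepticus. Status epilepticus lasted at least 30 minutes. Diazepam at 4 mg/kg ended the convulsions, controls received vehicle (saline or DMSO), and nuclei were taken 12 weeks later. The protocols name 2 mice per condition and do not say whether a library holds 1 mouse or both, nor whether the sort of nuclei used the reporter. No row for the reporter or for Cre was used here.

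With 1 library per condition there is no replicate, and no test between conditions was possible. Each level is the sum of unique molecular identifiers (UMIs) of a gene over the nuclei of a class, scaled to 1000000 UMIs of that class (CPM), with an exact Poisson 95% interval. Ratios carry an exact conditional binomial 95% interval and shares of nuclei an exact Clopper-Pearson 95% interval. All of these cover counting error only, not the spread between mice. The control library held 3661 nuclei with 11858162 UMIs and a median of 3447 per nucleus, and the epilepsy library 3078 nuclei with 7112131 UMIs and a median of 2443, of which 3551 and 2985 were kept. The libraries shared 16 barcodes. Classes were built by clustering without the 8 genes, and they were named from markers that did not include Calb1. All 10 CA1 pyramidal markers were detected in the pyramidal class of both libraries, with summed levels of 3213 and 3348 CPM.

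Calcium entering a neuron through channels and receptors is taken up by buffers and read by sensors, most of which bind it through EF-hand loops. Calbindin (Calb1), calretinin (Calb2) and parvalbumin (Pvalb) are mobile buffers and classical markers of hippocampal cell types: calbindin of superficial CA1 pyramidal cells and dentate granule cells, parvalbumin of fast-spiking interneurons, calretinin of a group of interneurons and of Cajal-Retzius cells. Hippocalcin (Hpca) and neurocalcin delta (Ncald) are myristoylated neuronal calcium sensors that move to membranes on binding calcium. Necab1 and Necab2 encode neuronal EF-hand proteins, and Pcp4 encodes an IQ-motif protein that binds calmodulin and is a marker of CA2 pyramidal cells.

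The depth of the data differed widely between the genes. Over both libraries Hpca had 1471 UMIs, Ncald 928, Necab1 716 and Calb1 566. Necab2 had 69 UMIs, Pvalb 33, Pcp4 12 and Calb2 7, so these 4 are described by their counts. Together the 8 genes gave 2446 UMIs in the control library and 1356 in the epilepsy library. On GRCm38, Necab1 (chromosome 4, 14952245 to 15149794, minus strand) lies 731 kb from Calb1 (chromosome 4, 15881264 to 15908064, plus strand). Hpca is also on chromosome 4, at 129111570 to 129122036 on the minus strand. Ncald is on chromosome 15, at 37366175 to 37792570 on the minus strand. All 8 are annotated as protein-coding genes.

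**Figure D1:**
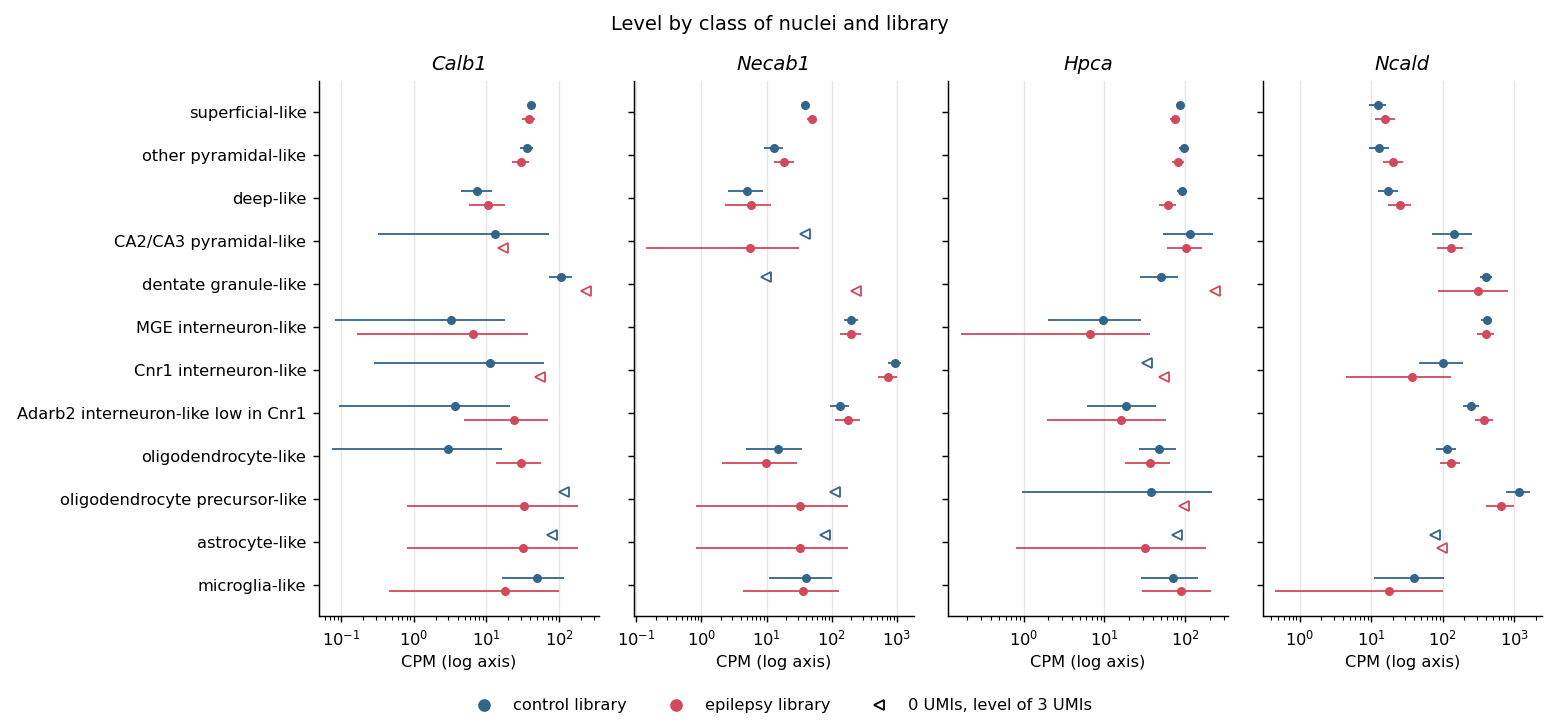
Level of Calb1, Necab1, Hpca and Ncald (CPM, log axis) in 12 classes of nuclei, with control in blue and epilepsy in red. Points are class sums with exact Poisson 95% intervals, and open triangles mark classes with 0 UMIs at the level that 3 UMIs would give. Necab1 reaches its highest level in Cnr1 interneuron-like nuclei (933 and 729 CPM), and Calb1 its highest in control granule-like nuclei (106 CPM).

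Calb1 was the member with the clearest sublayer pattern together with Necab1. In the control library its level was 41.2 CPM (35.5 to 47.6, 185 UMIs) in the 1284 superficial-like nuclei and 7.52 CPM (4.46 to 11.9, 18 UMIs) in the 660 deep-like nuclei. The epilepsy library had 38.0 CPM (31.0 to 46.0, 104 UMIs) in 1081 superficial-like nuclei and 10.6 CPM (5.67 to 18.2, 13 UMIs) in 471 deep-like nuclei. The superficial-like level was thus the higher one in both libraries, and the intervals of the sublayers did not overlap in either. The ratio was 5.48-fold (3.37 to 9.45) in the control library and 3.57-fold (2.00 to 6.93) in the epilepsy library, and whether these ratios differ between conditions was not tested. They depend on how the sublayers are drawn: when the pyramidal nuclei were divided at the median of the sublayer marker score in place of clusters, the log2 ratio fell from 2.45 to 1.24 in the control library and from 1.84 to 0.30 in the epilepsy library. That division gives every pyramidal nucleus a sublayer, with nuclei at the median on the deep-like side (1654 and 1440 nuclei, against 1183 and 899 on the superficial-like side).

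Calb1 was also seen in few nuclei at a time. In the control library 160 of 1284 superficial-like nuclei had a Calb1 UMI, or 12.5% (10.7 to 14.4), against 17 of 660 deep-like nuclei, or 2.58% (1.51 to 4.09). Epilepsy nuclei had shares of 9.07% (7.42 to 10.9) and 2.55% (1.32 to 4.41). Once each nucleus was thinned to 1000 UMIs, leaving out 17 and 42 superficial-like nuclei that were shallower, the superficial-like shares were 4.42% and 3.85%. In oligodendrocyte-like nuclei, a class that should lack Calb1, 0.444% of 225 control nuclei and 2.90% of 310 epilepsy nuclei had a UMI, at median depths of 844 and 614 UMIs. Their levels were 2.96 CPM (0.0749 to 16.5, 1 UMI) and 29.7 CPM (13.6 to 56.4, 9 UMIs). Microglia-like nuclei, which should lack it too, had 5 UMIs in 36 control nuclei, a share of 13.9% (4.67 to 29.5) and a level of 49.9 CPM (16.2 to 116), and 1 UMI in 38 epilepsy nuclei. The deep-like share in the epilepsy library, 2.55% at a median depth of 2630 UMIs, was not above that of oligodendrocyte-like nuclei, so it is read as background. The superficial-like level was above that of oligodendrocyte-like nuclei without overlap in the control library, but its interval overlapped theirs in the epilepsy library, as did the thinned shares (3.85%, 2.76 to 5.21, and 3.92%, 0.479 to 13.5). In the control library it also overlapped that of microglia-like nuclei. The 3.57-fold ratio of the epilepsy library therefore has a denominator at background level. The deep-like interval of the control library (4.46 to 11.9 CPM) also overlapped that of oligodendrocyte-like nuclei, so the 5.48-fold ratio there has the same limit.

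**Figure D2:**
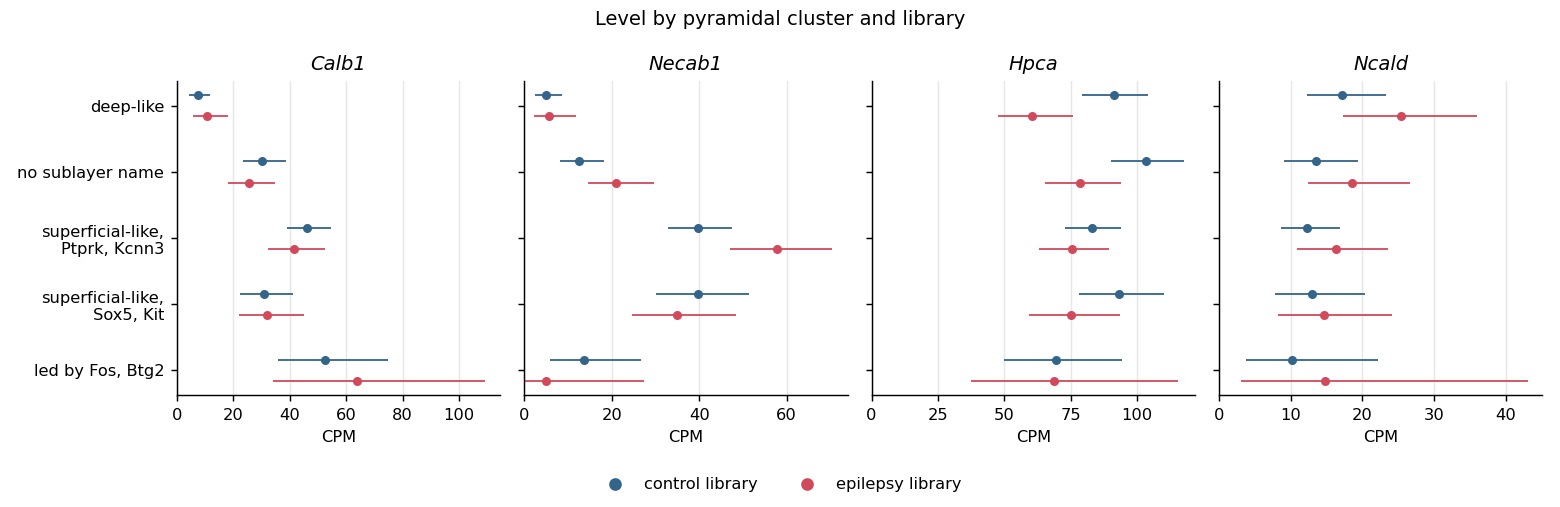
Level of Calb1, Necab1, Hpca and Ncald (CPM) in the 5 largest pyramidal clusters, control in blue and epilepsy in red, with exact Poisson 95% intervals. The deep-like cluster holds the lowest Calb1 level of the 5 in both libraries (7.52 and 10.6 CPM), and the cluster led by Fos and Btg2 the highest (52.6 and 63.9 CPM).

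The superficial-like nuclei came from a pair of clusters. In the cluster led by Ptprk and Ak5, Calb1 was at 46.2 CPM (38.9 to 54.6) in control and 41.5 CPM (32.4 to 52.3) in epilepsy nuclei. The cluster with Sox5 and Kit among its leading genes had 30.8 CPM (22.5 to 41.2) and 32.1 CPM (22.1 to 45.1). A large cluster without a sublayer name lay close to the latter, at 30.2 CPM (23.3 to 38.6) and 25.6 CPM (18.3 to 34.8). The highest level among the 5 largest pyramidal clusters was in the one led by the activity-regulated genes Btg2 and Fos, with 52.6 CPM (35.75 to 74.7, 31 UMIs) in 157 control nuclei and 63.9 CPM (34.0 to 109, 13 UMIs) in 75 epilepsy nuclei. Its intervals overlapped those of both superficial-like clusters, so that the order among these 3 is not settled beyond counting error.

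Dentate granule-like nuclei, which enter a CA1 dissection from the neighbouring dentate gyrus, had the highest Calb1 level of any class in the control library. There were 32 UMIs in 153 nuclei, a level of 106 CPM (72.4 to 149), and 28 nuclei had a UMI, or 18.3% (12.5 to 25.4). The interval of this level overlapped that of control microglia-like nuclei (49.9 CPM, 16.2 to 116). The epilepsy library held 14 granule-like nuclei with a median of 744 UMIs and no Calb1 UMI. This 0 allows a level of up to 236 CPM and a share of up to 21.4%, so a difference in granule-like nuclei was not detectable at this depth. In that library 3 of the 6 granule markers, Dsp, Lct and Sema5b, were also at 0. Interneurons had few Calb1 UMIs: 3 in 199 control nuclei (4.50 CPM, 0.927 to 13.1) and 4 in 143 epilepsy nuclei (12.1 CPM, 3.30 to 31.0).

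Necab1 followed Calb1 between superficial-like and deep-like nuclei, but not in all pyramidal clusters. Its level in superficial-like nuclei was 39.7 CPM (34.1 to 45.9, 178 UMIs) in control nuclei and 49.3 CPM (41.3 to 58.3, 135 UMIs) in epilepsy nuclei. In deep-like nuclei it was 5.02 CPM (2.59 to 8.76, 12 UMIs) and 5.73 CPM (2.30 to 11.8, 7 UMIs). Superficial-like nuclei were the higher ones in both libraries without overlap, by 7.91-fold (4.42 to 15.6) in control and 8.60-fold (4.06 to 21.8) in epilepsy. The deep-like intervals overlapped those of oligodendrocyte-like nuclei in both libraries (14.8 CPM, 4.81 to 34.5, and 9.91 CPM, 2.04 to 29.0). These ratios thus have denominators at background level. The superficial-like interval overlapped that of oligodendrocyte-like nuclei in the control library but not in the epilepsy library. It overlapped that of microglia-like nuclei in both (39.9 CPM, 10.9 to 102, and 35.9 CPM, 4.35 to 130). With the division at the median marker score the log2 ratio was 2.26 in the control library (2.98 with clusters) and 1.57 in the epilepsy library (3.10 with clusters). Unlike Calb1, Necab1 was at 13.6 CPM (5.86 to 26.7) in the control nuclei of the Fos-led cluster, below both superficial-like clusters of that library (39.6 and 39.7 CPM). The large cluster without a sublayer name was also below both in control nuclei, at 12.6 CPM (8.28 to 18.3). In epilepsy nuclei it had 21.1 CPM (14.5 to 29.6), against 57.9 CPM (47.0 to 70.4) and 35.0 CPM (24.5 to 48.5). No Necab1 UMI was found in 153 control granule-like nuclei, which allows a level of up to 9.92 CPM, where Calb1 had its highest level.

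Detection of Calb1 and Necab1 in the same nucleus was counted within the superficial-like class. Among 160 control superficial-like nuclei with a Calb1 UMI, 14 had a Necab1 UMI, or 8.75% (4.87 to 14.2), against 12.3% (10.4 to 14.3) of the 1124 without one. Epilepsy nuclei gave shares of 14.3% (8.04 to 22.8) of 98 nuclei and 9.05% (7.33 to 11.02) of 983. The order was opposite in the libraries and the intervals overlapped in both, so neither joint nor separate detection could be told from counting error.

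**Figure D3:**
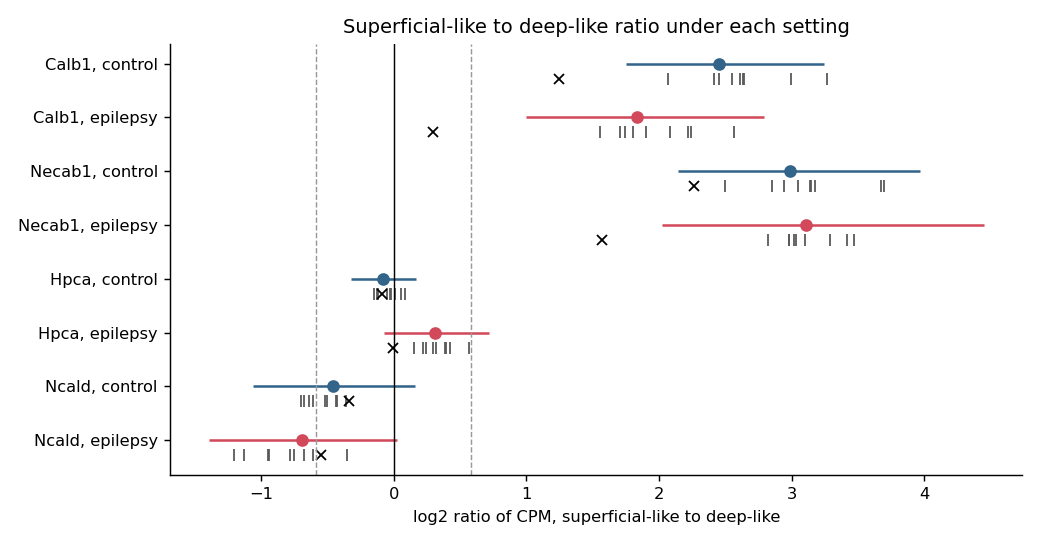
Log2 ratio of superficial-like to deep-like nuclei for 4 genes in each library: coloured points with 95% intervals are the values of the text, grey ticks below each are the other processing settings, and the cross is the division at the median marker score. Dashed lines mark 1.5-fold. Calb1 and Necab1 lie right of 0 under all settings run, with the epilepsy Calb1 cross at 0.30 inside the dashed lines.

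Set against all genes, 2 of the 4 members with at least 50 UMIs were past 1.5-fold between the sublayers in the control library, where 15.2% of all 8822 genes measured were past it in either direction and 9.87% upward. In the epilepsy library 3 of 4 were past it, against 21.5% of 7297 genes. The third was Ncald, which was lower in superficial-like nuclei: 15.7 CPM (11.4 to 21.1, 43 UMIs) against 25.4 CPM (17.2 to 36.0, 31 UMIs), a log2 ratio of -0.69 with an interval of -1.39 to 0.02 that includes 0. For the control library Ncald was at 12.5 CPM (9.43 to 16.2) and 17.1 CPM (12.3 to 23.3), a log2 ratio of -0.46 (-1.06 to 0.16). Hpca was close to even: its log2 ratio was -0.08 (-0.32 to 0.17) in control and 0.31 (-0.08 to 0.72) in epilepsy. The median log2 ratio of all genes measured was 0.07 for the control and 0.11 for the epilepsy library.

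Calb1 itself differed little between the libraries in the pyramidal class. Its level was 31.3 CPM (27.8 to 35.0, 304 UMIs) in 2837 control nuclei and 29.5 CPM (25.3 to 34.3, 172 UMIs) in 2339 epilepsy nuclei. The log2 ratio of -0.08 had an interval of -0.36 to 0.19, so that counting error alone leaves room for a ratio between 0.778-fold and 1.14-fold. In superficial-like nuclei it was -0.12 (-0.48 to 0.24), and in the pyramidal nuclei without a sublayer name -0.27 (-0.77 to 0.22). The superficial-like value was -0.48 with the division at the median marker score, outside its interval.

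**Figure D4:**
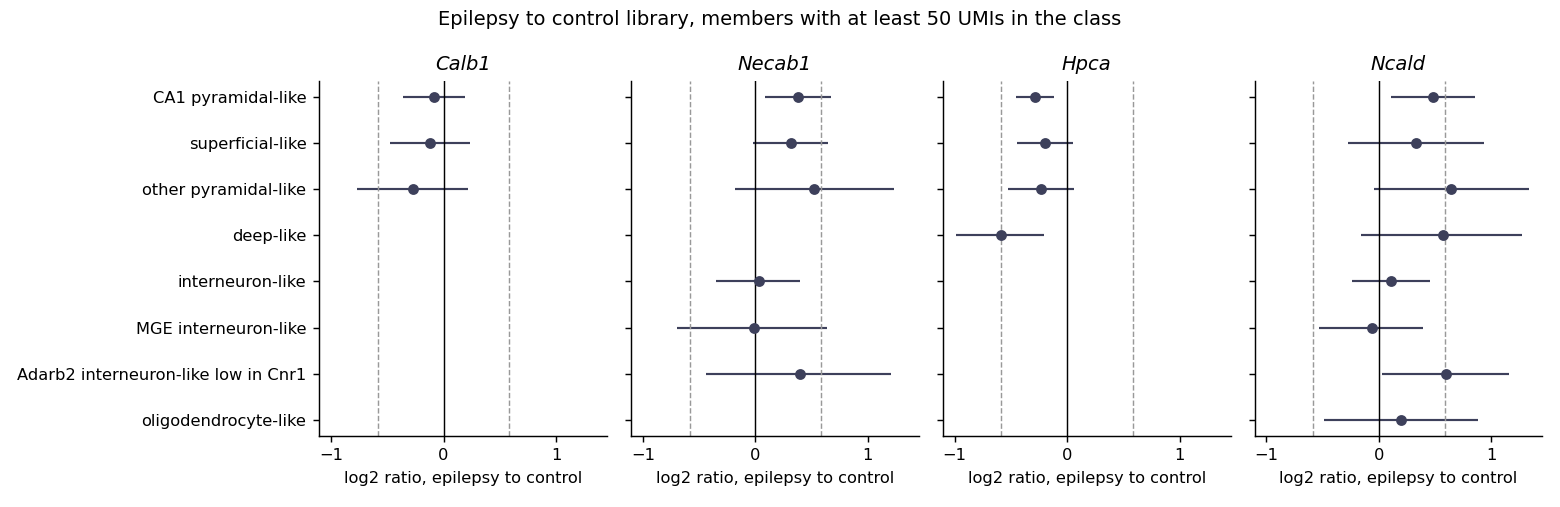
Log2 ratio of the epilepsy to the control library with 95% counting intervals, for each member and class with at least 50 UMIs over both libraries. Dashed lines mark 1.5-fold. Hpca lies left of 0 in all 4 pyramidal groups shown, furthest in deep-like nuclei (-0.59), and Ncald lies right of 0 in these 4 at the settings plotted. Under other settings Ncald turned to -0.13 in deep-like nuclei (thinning), and to -0.10 (resolution 2.0) and -0.08 (at least 500 genes) in superficial-like nuclei, and Hpca to 0.02 in superficial-like nuclei (thinning).

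Hpca, Necab1 and Ncald had pyramidal intervals that left out 0. Hippocalcin's level was 90.2 CPM (84.3 to 96.4, 877 UMIs) in control and 74.1 CPM (67.3 to 81.4, 432 UMIs) in epilepsy nuclei, a log2 ratio of -0.28 (-0.45 to -0.12). Necab1 was at 23.3 CPM (20.4 to 26.6) and 30.4 CPM (26.1 to 35.2), a log2 ratio of 0.38 (0.09 to 0.67). Ncald was at 13.8 CPM (11.5 to 16.3) and 19.2 CPM (15.8 to 23.1), a log2 ratio of 0.48 (0.10 to 0.85). Hpca was thus the lower and Necab1 and Ncald the higher in the epilepsy library, and 0 of the 4 measured members were past 1.5-fold, where 13.8% of all 11082 genes were. With nuclei of 1 library each, a difference between individual mice and one between conditions cannot be told apart.

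Depth and some of the RNA of other cell types differed between the libraries along with these ratios. The median UMI count of pyramidal nuclei was 3575 for control and 2567 for epilepsy. The 6 oligodendrocyte markers, all detected, summed to 81.7 and 129 CPM there, and the 7 interneuron markers, all detected, to 54.1 and 81.7 CPM. The 5 microglia markers summed to 21.4 and 30.5 CPM. The 6 astrocyte markers, with Aqp4 at 0 in epilepsy nuclei, went the other way (39.1 and 35.85 CPM). Interneuron-like nuclei had far higher levels of Necab1 (273 and 278 CPM) and Ncald (306 and 330 CPM) than pyramidal nuclei. The part of this RNA in the higher pyramidal levels was not tested. With each nucleus thinned once to 1000 UMIs the log2 ratios were -0.20 for Hpca, 0.14 for Necab1 and 0.13 for Ncald. Those of Necab1 and Ncald were smaller than without thinning but within the intervals of the unthinned ratios. Thinning left out 90 control and 130 epilepsy nuclei that were shallower. After it 70 control and 62 epilepsy nuclei had a Necab1 UMI, and 41 and 36 a Ncald UMI. A pyramidal cluster led by oligodendrocyte genes held 3 control and 38 epilepsy nuclei. Without it the log2 ratios were -0.29 for Hpca, 0.39 for Necab1 and 0.44 for Ncald.

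In deep-like nuclei Hpca was lower and Ncald higher in the epilepsy library by similar log2 ratios. Hpca was at 91.1 CPM (79.4 to 104, 218 UMIs) in control nuclei and 60.6 CPM (47.6 to 76.05, 74 UMIs) in epilepsy nuclei, and these intervals did not overlap. The log2 ratio was -0.59 (-0.99 to -0.20), which placed 1 of 2 measured members past 1.5-fold, against 13.9% of 6783 genes. The value lies at the threshold, and it was -0.43 with each nucleus given equal weight and -0.32 with the division at the median marker score. Ncald, the other measured member, was at 17.1 CPM (12.3 to 23.3) and 25.4 CPM (17.2 to 36.0), a log2 ratio of 0.57 with an interval of -0.16 to 1.27 that includes 0, and of -0.13 with thinning to 1000 UMIs. In superficial-like nuclei Hpca was at 86.2 CPM (77.9 to 95.3) and 75.2 CPM (65.3 to 86.2), a log2 ratio of -0.20 (-0.45 to 0.05), and 0 of 4 members were past 1.5-fold, where 12.3% of 9106 genes were. Whether the deep-like and superficial-like shifts differ was not tested. Among the pyramidal nuclei without a sublayer name 1 of 4 members was past 1.5-fold, against 13.3% of 7676 genes: Ncald, with 37 and 38 UMIs, a level of 13.01 CPM (9.16 to 17.9) in control and 20.3 CPM (14.4 to 27.9) in epilepsy nuclei and a log2 ratio of 0.64 (-0.05 to 1.34). Hpca was at 116 CPM (53.1 to 220.5, 9 UMIs) in control and 101 CPM (60.0 to 160, 18 UMIs) in epilepsy CA2/CA3 pyramidal-like nuclei, and at 12.0 CPM (5.18 to 23.6, 8 UMIs) and 9.08 CPM (1.87 to 26.5, 3 UMIs) in interneuron-like nuclei, so that interneurons were the lower class without overlap in both libraries. Hpca UMIs were counted in non-neuronal classes as well, with 47.4 CPM (27.1 to 76.9, 16 UMIs) in control and 36.3 CPM (18.1 to 65.0, 11 UMIs) in epilepsy oligodendrocyte-like nuclei. Microglia-like nuclei had 69.8 CPM (28.1 to 144, 7 UMIs) in control and 89.7 CPM (29.1 to 209, 5 UMIs) in epilepsy. The microglia-like intervals overlapped those of CA1 pyramidal-like nuclei in both libraries. Whether these UMIs are background was not tested. Thinned to 1000 UMIs, 8.30% of control pyramidal nuclei (7.29 to 9.39) and 5.33% of 75 control oligodendrocyte-like nuclei (1.47 to 13.1) had a Hpca UMI, so these classes were not separated by the thinned share.

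Ncald had its lowest levels in CA1 pyramidal nuclei among the neuronal classes of the control library, and its highest in oligodendrocyte precursor-like nuclei. In the control library its level ran from 13.8 CPM in pyramidal nuclei to 112 CPM (79.6 to 154) in oligodendrocyte-like, 142 CPM (70.9 to 254) in CA2/CA3 pyramidal-like, 306 CPM (265 to 351) in interneuron-like, 403 CPM (335 to 482) in granule-like and 1146 CPM (773 to 1636, 30 UMIs in 24 nuclei) in precursor-like nuclei. Neighbours in this order overlapped in their intervals between oligodendrocyte-like and CA2/CA3-like nuclei and between interneuron-like and granule-like nuclei. This cluster had markers of another class, the committed precursors, beside its own among its 10 leading genes (2 of each), and it took that name when nuclei with under 500 detected genes were left out. In the epilepsy library precursor-like nuclei were again highest, at 646 CPM (395 to 998, 20 UMIs in 38 nuclei). Oligodendrocyte-like nuclei had 129 CPM (91.6 to 176) there, a log2 ratio of 0.20 (-0.49 to 0.88), with 0 of 1 measured members past 1.5-fold against 12.4% of 2379 genes. This last value was -0.83 among oligodendrocyte-like nuclei with at least 500 detected genes.

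**Figure D5:**
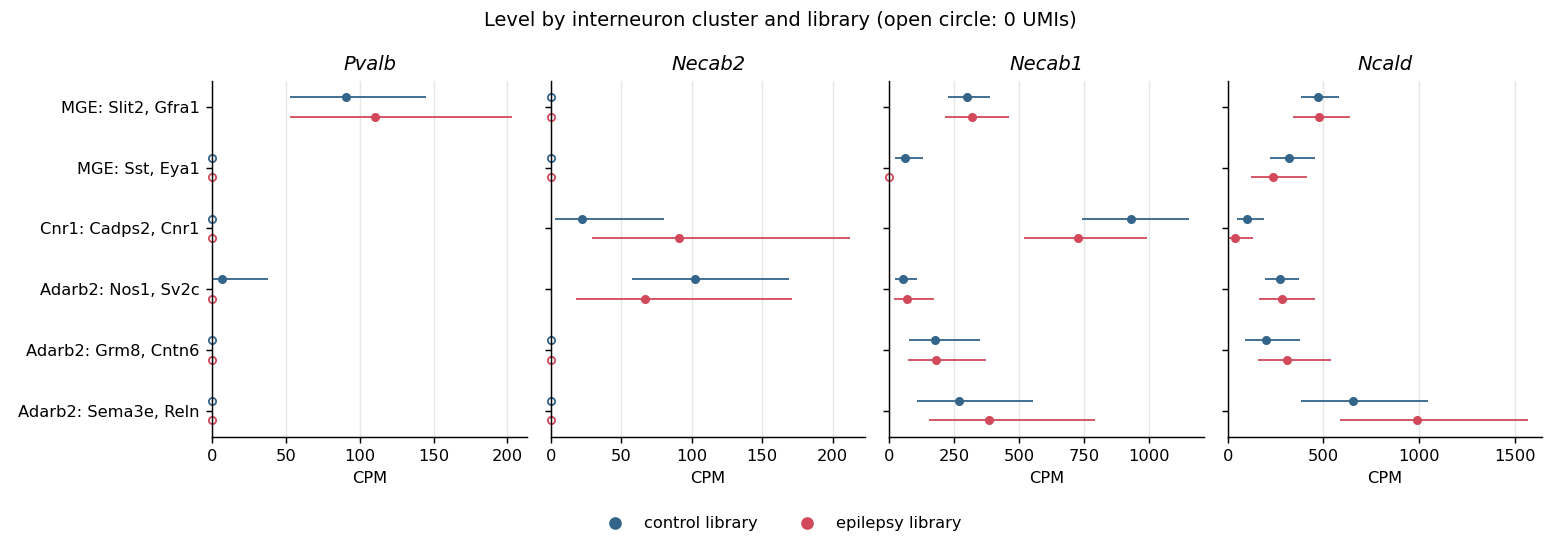
Level of Pvalb, Necab2, Necab1 and Ncald (CPM) in the 6 largest interneuron clusters, named by class and leading genes, control in blue and epilepsy in red. Bars are exact Poisson 95% intervals and open circles mark 0 UMIs. Pvalb UMIs fall in the cluster led by Slit2 and Gfra1 except for 1, and Necab1 peaks in the Cnr1 cluster.

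The interneuron subtypes differed in which members they held. Necab1 stood at 933 CPM (744 to 1155, 84 UMIs) in 25 control and 729 CPM (521 to 993, 40 UMIs) in 20 epilepsy nuclei of the Cnr1 class, the cannabinoid-receptor interneurons that often express cholecystokinin. A Necab1 UMI was found in 84.0% (63.9 to 95.5) and 80.0% (56.3 to 94.3) of them. Nuclei of the class with medial ganglionic eminence (MGE) markers had 200.5 CPM (154 to 257) and 198 CPM (134 to 283), and Adarb2 nuclei low in Cnr1 had 134 CPM (94.2 to 186) and 177 CPM (111 to 268). The MGE-like cluster led by Slit2 and Gfra1 had 298 CPM (225 to 387) and 320 CPM (214 to 460). That led by Sst had 60.3 CPM (22.1 to 131) in control and 0 UMIs in 20 epilepsy nuclei. Among the Adarb2 clusters the control level ran from 54.8 CPM (23.6 to 108, Nos1 and Sv2c) to 270 CPM (108 to 556, Sema3e). The Cnr1 class was above the other 2 classes in both libraries without overlap, while those 2 classes overlapped. The Cnr1 marker Sncg was at 0 in this class in both libraries, and 5 of its 6 markers were detected.

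Ncald ran the other way among the subtypes. It was at 414 CPM (345 to 492) in control and 397 CPM (303 to 510) in epilepsy MGE-like nuclei, and at 99.96 CPM (45.7 to 190) and 36.4 CPM (4.41 to 132) in the Cnr1 class. The MGE-like level was above that of the Cnr1 class in both libraries without overlap. In Adarb2 nuclei low in Cnr1 it was 250.2 CPM (194 to 318, 67 UMIs) in control and 378 CPM (278 to 503, 47 UMIs) in epilepsy nuclei. Its log2 ratio there was 0.60 (0.03 to 1.16), so that 1 of 2 measured members was past 1.5-fold, against 18.2% of 1321 genes. The class was made up differently in the libraries, with 45 and 26 nuclei of a cluster with Nos1 and Sv2c, 23 and 27 of one led by Grm8, and 14 and 3 of one led by Ntng1. A further 10 and 10 nuclei were in a cluster led by Sema3e. Ncald was at 274 CPM (196 to 373) and 284 CPM (166 to 455) in the Nos1 and Sv2c cluster, at 200.3 CPM (91.6 to 380.2) and 310.4 CPM (160.4 to 542) in the Grm8 cluster, and at 655 CPM (382 to 1049) and 992 CPM (588 to 1568) in the Sema3e cluster, with overlapping intervals in all 3. The Ntng1 cluster had 1 Ncald UMI in 14 control nuclei (19.7 CPM, 0.498 to 110) and 0 in 3 epilepsy nuclei. The part of the class's make-up in its ratio was not tested. Over all interneuron-like nuclei 0 of 2 members, Necab1 and Ncald, were past 1.5-fold, where 12.7% of 3409 genes were, with log2 ratios of 0.03 (-0.35 to 0.40) and 0.11 (-0.24 to 0.45). The Necab1 value was 0.59 with nuclei thinned to 1000 UMIs.

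Parvalbumin transcripts were few, and most came from one cluster. The control library had 18 Pvalb UMIs among 199 interneuron-like nuclei, 17 of them in the MGE-like cluster led by Slit2 and Gfra1, where the level was 90.5 CPM (52.7 to 145). In the epilepsy library all 10 interneuron UMIs were in that cluster, at 110 CPM (52.9 to 203). The cluster led by Sst had none in either library. The remaining control interneuron UMI was in the Nos1 and Sv2c cluster, and CA1 pyramidal-like nuclei had 3 Pvalb UMIs in control and 1 in epilepsy. Over the MGE-like class the level was 55.0 CPM (32.0 to 88.0) and 66.1 CPM (31.7 to 122), with overlapping intervals and too few UMIs for a ratio. The Pvalb UMIs were found in 15 of 82 control nuclei, or 18.3% (10.6 to 28.4), and in 7 of 57 epilepsy nuclei, or 12.3% (5.08 to 23.7). Of the 15 control nuclei, 13 also had a Ncald UMI, or 86.7% (59.5 to 98.3), against 70.1% (57.7 to 80.7) of the 67 without Pvalb. A Necab1 UMI was in 7 of the 15, or 46.7% (21.3 to 73.4), against 26.9% (16.8 to 39.1). Both pairs of intervals overlapped, and the nuclei with Pvalb were deeper (median 4731 against 4050 UMIs).

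Necab2 was found in other interneurons than Pvalb. In the Nos1 and Sv2c cluster it was at 103 CPM (57.5 to 169, 15 UMIs) in control and 66.9 CPM (18.2 to 171, 4 UMIs) in epilepsy nuclei. The Cnr1 class had 2 control and 5 epilepsy UMIs, and the MGE-like class 0 and 1. Outside interneurons, CA2/CA3 pyramidal-like nuclei had 51.6 CPM (14.1 to 132, 4 UMIs) and 67.5 CPM (34.9 to 118, 12 UMIs), against 1.03 CPM in CA1 pyramidal-like nuclei of either library (10 and 6 UMIs). The CA2/CA3 and CA1 intervals did not overlap in either library.

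Calb2 and Pcp4 were at the edge of detection. Calb2 had 0 UMIs in 199 control and 143 epilepsy interneuron-like nuclei, which allows levels of up to 4.50 and 9.08 CPM and shares of up to 1.51% and 2.10% of nuclei. Of its 7 UMIs, 5 were in CA1 pyramidal-like nuclei and 2 in 1 control nucleus of the Cajal-Retzius-like class, which held 8 and 6 nuclei. Pcp4 had 5 UMIs in control and 1 in epilepsy CA1 pyramidal-like nuclei, 3 in control granule-like nuclei, and 0 and 1 in CA2/CA3 pyramidal-like nuclei. No ratio is given for either gene.

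The members differed in which other genes had the most similar profile over 12 points, the levels of 6 classes in each library on the scale of log2(CPM + 10). Pearson's r is a description here, since the points share libraries and depth and the sublayers share most of their profile. For Calb1 the closest of 8325 genes were Ahdc1 (r = 0.90, Spearman's rho = 0.83), Otub2 (r = 0.87) and Lsm3 (r = 0.86). The Calb1 points outside the sublayers rest on 1 to 9 UMIs each, so much of this profile is near background. Necab1 was closest to Dlc1 (r = 0.98, rho = 0.95), Asic2, an acid-sensing ion channel, and Mgat5b. Itga4 (r = 0.98), Nell2 and Lingo1 came closest to Hpca. The profile of Ncald was nearest to Npas3 (r = 0.97), Cux2, and Grik1, a kainate receptor subunit. Among the members themselves Hpca and Ncald were opposed over these points (r = -0.97, rho = -0.93). The Hpca points outside the sublayers rest on 1 to 16 UMIs each. Classes outside the 6 did not all follow this: CA2/CA3 pyramidal-like nuclei had Hpca at 116 and 101 CPM and Ncald at 142 and 129 CPM. Control granule-like nuclei had 49.6 CPM of Hpca and 403 CPM of Ncald. Calb1 and Necab1 had r = -0.16 over the 6 classes in spite of their common sublayer.

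A wider set of 63 genes for calcium sensors, calmodulins, S100 proteins, calcineurin, other EF-hand and reticulum proteins placed the members among their relatives. In CA1 pyramidal-like nuclei 41 of the 63 had at least 50 UMIs, of which 3 were higher and 3 lower past 1.5-fold in the epilepsy library. The background was 8.76% of all genes upward and 5.04% downward, and the median log2 ratio was 0.03 for the set and 0.00 for all genes. The 3 higher ones were Tesc (tescalcin, which binds a sodium-proton exchanger), Slc25a13 (a mitochondrial aspartate-glutamate carrier) and Kcnip1 (a subunit of A-type potassium channels). Tesc was at 45.6 CPM in control and 81.1 CPM in epilepsy nuclei, a log2 ratio of 0.83 (0.64 to 1.02). The lower ones were Gca, Rcn2 (a reticulum protein) and Ppp3r1, the regulatory subunit of calcineurin. Rcn2 was at 24.99 and 14.8 CPM, a log2 ratio of -0.76 (-1.13 to -0.40). Kcnip1 and Ppp3r1 are named after their values were seen.

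Other genes of the set had ratios within 1.5-fold in the pyramidal class. Kcnip2 had a log2 ratio of 0.57 (0.46 to 0.69), and Efhd2 one of 0.56 (0.23 to 0.88), and both intervals reached past 1.5-fold. Cabp1, a neuronal relative of calmodulin, was at 108 and 137 CPM, a log2 ratio of 0.35. Kcnip4, the most abundant of the set, was at -0.28 (13763 and 11355 CPM), neurogranin (Nrgn), which binds calmodulin, at -0.29 and Slc25a12 at -0.34. By sublayer, 4 of 30 set members were higher and 2 lower in deep-like nuclei past 1.5-fold, against 5.22% and 8.67% of all genes. The higher ones were Tesc (log2 ratio 1.14), Cabp1 (0.66), Micu2 (0.62) and Chp1 (0.61), and the lower ones Rcn2 (-0.87) and Gap43 (-0.71), of which Chp1 and Gap43 are named after their values were seen. Slc25a12 (-0.40) and Kcnip4 (-0.27) stayed within 1.5-fold. In superficial-like nuclei 2 of 38 were higher, Kcnip2 (0.66) and Tesc (0.67), and 2 lower, Rcn2 (-0.60) and Ppp3r1 (-0.99), against 6.79% and 5.49% of all genes. Ppp3ca (0.09), Vsnl1 (-0.35) and Kcnip4 (-0.20) stayed within 1.5-fold there.

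In interneuron-like nuclei 0 of 17 set members were higher and 1 lower past 1.5-fold, against 5.16% and 7.54% of all genes. The lower one was Chp1, which binds sodium-proton exchangers and had 44 UMIs in control and 9 in epilepsy nuclei (log2 ratio -1.28, -2.50 to -0.22). Cabp1 (0.18), Vsnl1 (0.17), Ppp3cb (-0.27) and Micu3 (-0.41) lay within it.

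Between the sublayers Tesc had the pattern of Calb1 and Necab1. It was at 69.3 CPM in superficial-like and 12.96 CPM in deep-like nuclei of the control library, a log2 ratio of 2.42 (1.88 to 3.00), and at 111 and 28.6 CPM in the epilepsy library, a log2 ratio of 1.95 (1.44 to 2.50). Tesc was among the leading genes of a superficial-like cluster, so this is a description of the clusters. Kcnip4 and Cabp1 were the opposite, with log2 ratios of -0.94 and -0.71 for control and -0.87 and -1.20 for epilepsy nuclei. Of the set, 3 of 38 measured genes were higher and 4 lower past 1.5-fold in superficial-like nuclei of the control library, against 9.87% and 5.34% of all genes. The counts for the epilepsy library were 4 of 32 higher and 3 lower, against 15.2% and 6.35%.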

How the data were processed

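The deposited matrices hold raw UMI counts per gene and nucleus, which the authors made with Cell Ranger 2.2.0 on GRCm38 (mm10), per the submitters' processing notes; no source used here names their annotation. No library was excluded. Nuclei with under 200 detected genes or over 5% mitochondrial UMIs would have been removed (0 failed). A doublet caller marked 4 nuclei in each library, under 0.5%, and had not worked, so the top 3% by its score were removed (110 and 93). Counts were scaled per 10000, and 2000 variable genes without the 8 members, centred by library, gave 30 components, 20 neighbours and Leiden clusters at resolution 1.0 (scanpy 1.11.5, leidenalg 0.10.2). Clusters, and sub-clusters of pyramidal and interneuron nuclei, were named by fixed markers, Calb1 excluded. Interneuron markers that 2 lists share were left out of the naming of subtypes. In this rebuilt naming 893 control and 787 epilepsy pyramidal nuclei kept no sublayer name, including those of a cluster led by Fos.

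UMIs were summed per class. Ratios were computed for classes with at least 30 nuclei in each library, and a member or gene counted as measured with at least 50 UMIs over both groups and as past the fold at 1.5. Intervals are at 95%, and a 0 is given with the level of 3 counts. The intervals were run on simulated counts that held counting error only, so that run cannot speak to the spread between nuclei or mice. Named genes are the 8 members, the fixed-set genes with the 5 highest and 5 lowest pyramidal ratios and the 3 highest and 3 lowest in deep-like, superficial-like and interneuron-like nuclei by the interval bound nearest 0, and for each well-measured member the 3 genes of highest Pearson correlation; 1 gene that this rule names is not reported here. The members and gene sets were chosen with earlier results of these data known. TMM factors came from edgeR 4.0.16, and gene positions from GENCODE M21 (30330 of 30431 identifiers matched). Alternatives were other resolutions, filters, centring, scaling, thinning to 1000 UMIs, minimum UMIs and folds.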

Additional observations from a re-analysis of the deposited data

How the results depend on the processing

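Of 89 recomputed counts of members past 1.5-fold, 78 stayed within 1.5 times the value given and 11 did not. For deep-like nuclei, epilepsy to control, the count of 1 became 2 with the members kept among the clustering genes and with no centring by library, and 0 with equal weight per nucleus, thinning to 1000 UMIs or a 2-fold threshold. For interneuron-like nuclei it became 1 (from 0) with thinning, and for oligodendrocyte-like nuclei 1 (from 0) with at least 500 detected genes. For superficial-like to deep-like nuclei the count became 1 (from 2) in the control library with at least 200 UMIs. In the epilepsy library it became 1 (from 3) with the division at the median marker score or with thinning, and 0 with at least 200 UMIs, where 1 member remained measured. Except for fewer measured members under thinning and the higher minimum, the cause was not tested. Of 279 recomputed single ratios, 271 lay within the 95% interval of the value given, 8 lay outside it, and none whose interval left out 0 changed sign. Thinning moved the median log2 ratio of all genes by up to 0.10. Leaving out the pyramidal cluster led by oligodendrocyte genes was chosen after seeing the data.

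No paired analysis was possible because each condition has 1 library. The depth limits Calb2, Pcp4, Pvalb and Necab2 to counts and levels, and the 14 granule-like nuclei of the epilepsy library to an upper limit.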
